A study of Drosophila melanogaster with 9 samples.

Results

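Bins of 10 kb that had partners in Hi-C after heat shock but none in a companion list were collected from Kc167 cells, a Drosophila melanogaster line established from embryos. A bin was taken when it had no pair in the companion list, at least 1 pair in the heat-shock list and under 50 different partners there. Of the 11120 bins used in either list, 1225 met this rule, which is 11.0% (95% interval 10.4 to 11.6%) and is called the heat-shock-only set here. The bins were chosen by their measured pairs in both lists and by their number of heat-shock partners, so this share describes the choice and is not a test.

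Per the labels, the heat-shocked cells were grown at 25 °C, held at 37 °C for 20 min and fixed with formaldehyde, and their chromatin was cut with HindIII. The 2 Hi-C libraries of these cells stand behind 1 list of 59303 bin pairs. The companion list holds 33978 pairs, and no label used here gives its cells, its treatment or its number of libraries. The series also has 5 ChIP-seq libraries of heat-shocked cells (BEAF, CP190, CTCF, SuHw and RNAPII antibodies), 1 RNAPII library of cells in normal culture and 1 input, which were not analysed here.

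Hi-C joins DNA ends that lie close together in fixed nuclei, and a listed pair is one whose contact passed the authors' limit. Heat shock switches on the heat shock genes through the transcription factor HSF and lowers transcription at many other genes. BEAF, CTCF and SuHw are insulator proteins that bind DNA, CP190 is their shared cofactor, and such proteins are found at the borders of contact domains in fly chromosomes. Neither list carries gene names or sequence, and no gene was assigned to a bin.

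The limit of 50 partners removed no bin. The richest heat-shock-only bin had 29 partners, and no bin with 50 or more heat-shock partners lacked a companion pair. The score limit of the lists lies closer. It decides whether a bin is paired at all: 42 heat-shock-only bins had a best heat-shock score between -2.1 and the limit of -2, just inside the rule, and 231 bins of both lists were held outside by a best companion score in that same range.

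The excess of heat-shock-only over companion-only bins changed with the lengths of the lists. Bins paired in the companion list but not in the heat-shock list numbered 274, or 2.46% of the bins used, against the 1225 of the heat-shock list. When the heat-shock list was cut to its 33978 strongest pairs, the numbers were 969 and 939, or 8.92% (8.39 to 9.47%) and 8.64% (8.12 to 9.19%), and these intervals overlap. The excess of heat-shock-only over companion-only bins was thus not seen in lists of equal length. Companion-only bins changed more, from 274 to 939, than heat-shock-only bins, from 1225 to 969. The cut kept heat-shock pairs with scores of -2.464 or below, while companion pairs still reached -2, so the score limits then differed. Of the 1225 bins, 79.1% (76.7 to 81.3%) kept a pair in the cut list.

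Heat-shock-only bins had few partners. The median was 2 (95% interval 2 to 3) and the mean 3.21, where bins paired in both lists with under 50 heat-shock partners had a median of 7 (6 to 7). A single partner was found for 370 bins, or 30.2% (27.6 to 32.9%) of the set, and 272 bins had 2 partners. Only 36 bins, 2.94% (2.07 to 4.05%), had 10 or more, and 3 had 20 or more. Read the other way, the share of heat-shock-list bins with no companion pair was 39.5% (36.4 to 42.7%) among bins with 1 heat-shock partner. It was 17.2% (15.0 to 19.6%) at 3 partners, 9.51% (7.55 to 11.8%) at 6 and 1.79% (1.17 to 2.61%) at 10 to 14. The poorer a bin was in heat-shock partners, the more often it was missing from the companion list.

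**Figure D1:**
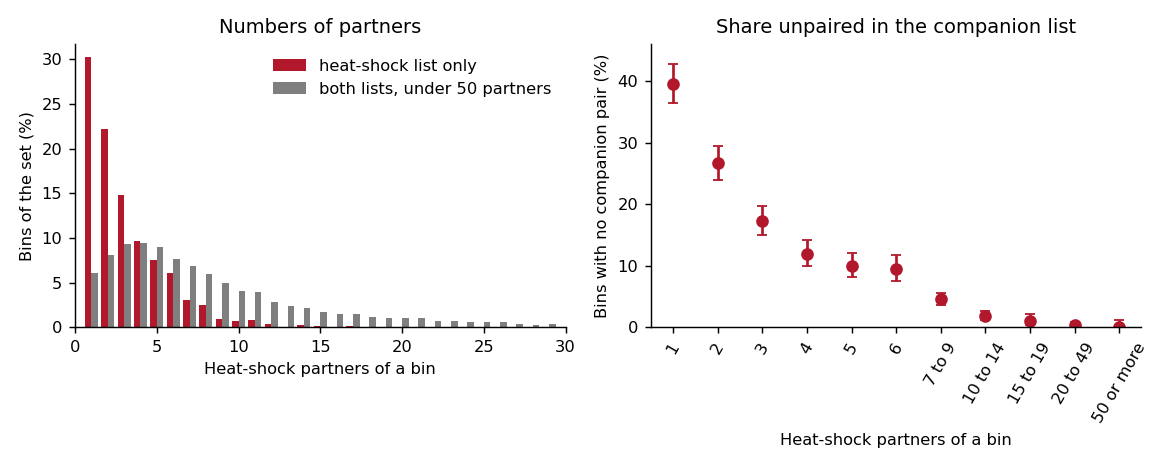
Left, share of bins (%) by number of heat-shock partners, for heat-shock-only bins (red) and bins of both lists with under 50 partners (grey). Right, share of all heat-shock-list bins with no companion pair (%), by number of heat-shock partners, with exact 95% intervals; it falls from 39.5% at 1 partner to 0 of 320 bins at 50 or more.

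Most of the bins stood alone along the chromosomes. They formed 1076 runs of adjacent bins, of which 946 held a single bin, 112 held 2, 17 held 3 and 1 held 4. Runs of 2 or more held 22.8% (20.5 to 25.2%) of the set. Of the used bins directly beside a heat-shock-only bin, 12.9% (11.6 to 14.3%) were in the set too, against 10.8% (10.3 to 11.3%) of the used bins beside a both-list bin with under 50 partners. Heat-shock-only bins thus adjoined each other slightly more often than the comparison bins adjoined them; each adjacent couple is counted from both sides, so the first interval is too narrow. The median step to the next heat-shock-only bin along an arm was 60 kb (50 to 60 kb). The bins beside them were mostly paired in the companion list: both neighbours had a companion pair for 821 bins, 1 neighbour for 370 and neither for 34. Most of the set were thus single bins of 10 kb left out of a companion list that covered the bins around them. That list held 9895 of the 11120 bins used, so companion-paired neighbours are common beside any bin and are no trait of the set.

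The longest run lay at X 2400001-2440000 and joined 4 bins with 2, 2, 1 and 2 heat-shock partners in order along the arm. Its last bin, X 2430001-2440000, held the strongest pair of the run, with a score of -14.9 and a partner 13.98 Mb away. The next run by length and score, 2R 12720001-12750000, had bins of 4, 2 and 5 partners, and a best score of -11.1 at its middle bin. The third, 3R 8010001-8040000, had bins of 1, 6 and 7 partners, and bordered a bin with 57 heat-shock and 23 companion partners. Over all runs of 2 or more, the median was 3 (2 to 3) partners per bin, against 2 (2 to 2) for bins that stood alone.

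Adjacent heat-shock-only bins met the same partner more often than those 1000 kb apart, while the intervals for adjacent bins and for 100 kb overlap. Bins of both lists were not counted in this way, so this is not shown to be particular to the set. Of 149 couples of directly adjacent heat-shock-only bins, 38 had a partner in common, or 25.5% (18.7 to 33.3%). At an offset of 100 kb it was 17.6% (11.6 to 25.1%) of 136 couples, and at 1000 kb 6.30% (2.76 to 12.0%) of 127. Most of these common partners were rich bins, as bins with 50 or more heat-shock partners are called here. Without them the share was 4.03% (1.49 to 8.56%) for adjacent bins and 0.787% (0.0199 to 4.31%) at 1000 kb, so few neighbours shared a partner that was not rich.

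All 5 arms held such bins in similar shares, apart from 3L. The share of bins used was 12.3% (10.9 to 13.9%) on 2R, with 245 bins, and 12.1% (10.7 to 13.5%) on 2L, with 260. On 3R it was 11.2% (10.1 to 12.5%), with 299 bins, and on X 11.2% (9.81 to 12.6%), with 222. On 3L 199 bins made 8.55% (7.45 to 9.76%), an interval below those of the other 4 arms. Over 117 windows of 1 Mb with at least 80 used bins, the median was 11 heat-shock-only bins and the quartiles were 7 and 13. The extremes were picked after the counts were seen. The window X 1-1000000 had the most, 22 of 84 bins used, and 2R 1-1000000 and 3L 23000001-24000000 had none. The widest stretch without a heat-shock-only bin ran between 3L 22940001-22950000 and 3L 24010001-24020000, 1070 kb apart.

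The ends of the arms differed. Coordinates of 2L, 3L and X end at the centromere, where heterochromatin borders the arm, and those of 2R and 3R begin there. In the 1 Mb at the centromere ends, 18 of 456 bins used were in the set, or 3.95% (2.36 to 6.17%), against 65 of 458 in the 1 Mb at the telomere ends, or 14.2% (11.1 to 17.7%). In between the share was 11.2% (10.6 to 11.8%). The centromere end of 2R had 0 of 100 bins, with an exact interval of 0 to 3.62%, and that of 2L 1 of 95. The centromere ends of 3R and X departed from this, with 9.28% (4.33 to 16.9%) and 8.33% (3.12 to 17.3%).

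The telomere ends were uneven as well. X had 26.7% (17.8 to 37.4%) and 3R 19.8% (12.4 to 29.2%), both intervals above the 11.0% of all bins. On 2L it was 4.30% (1.18 to 10.6%), on 3L 8.60% (3.79 to 16.2%) and on 2R 12.2% (6.26 to 20.8%). The general richness in partners differed too: the median bin had 11 companion partners at the centromere ends and 3 at the telomere ends, and 12 and 7 heat-shock partners. In between the medians were 3 and 6. The share there, 11.2% (10.6 to 11.8%), has an interval that overlaps that of the telomere ends, 14.2% (11.1 to 17.7%). The part of this richness in the share was not tested. In lists of equal length the order held, with 3.31% (1.86 to 5.40%) at the centromere ends and 12.5% (9.56 to 15.9%) at the telomere ends. Companion-only bins then made up 7.06% (4.88 to 9.83%) and 5.57% (3.64 to 8.11%) of the same ends.

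**Figure D2:**
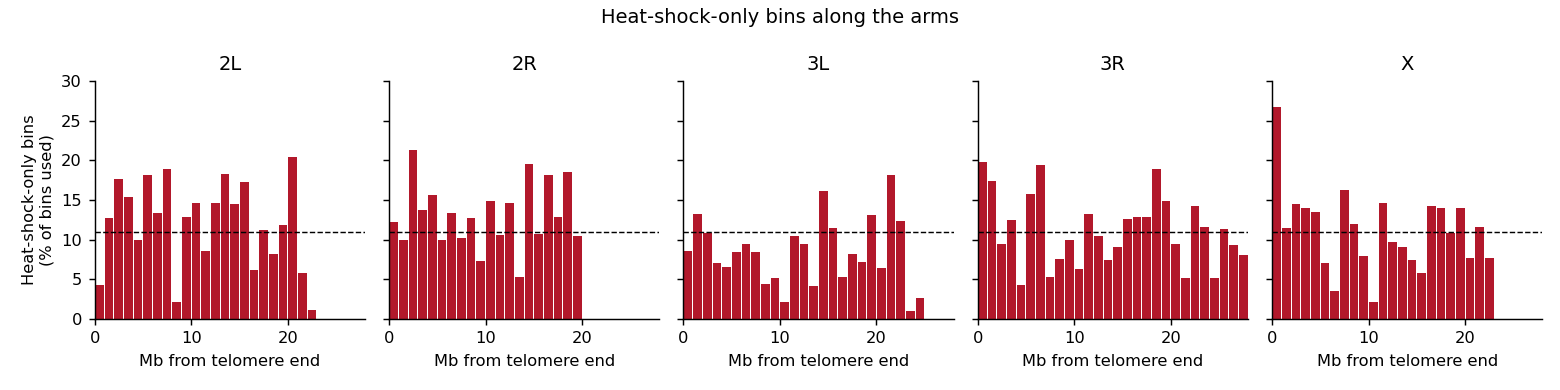
Share of bins used that were heat-shock-only (%), in windows of 1 Mb counted from the telomere end of each arm (windows with at least 25 bins used). The dashed line marks the 11.0% of all bins; the first window of X reaches 26.7%, and that of 2L 4.30%.

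The 5 heat-shock-only bins richest in partners differed in how widely these were spread. The first, 3R 1310001-1320000, had 29 partners, 17 on the lower and 12 on the higher side, from 40 kb to 3.8 Mb away with a median of 1.07 Mb. Of its scores, 7 were -5 or below and the best was -6.38, with 3R 3120001-3130000. A group of 8 of its partners lay between 3R 20001 and 3R 250000, near the centromere end of the arm. The second, X 14160001-14170000, had 28 partners, of which 25 lay on the higher side, and all fell between 260 kb and 1.38 Mb away. Its best score was -7.47, with X 14850001-14860000, and none of its partners was a rich bin.

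The bins on 3L and at the far end of 3R had partners farther away. The bin 3L 4210001-4220000 had 20 partners at a median distance of 2.835 Mb, 4 of them rich, among them 3L 24160001-24170000, which lies 19.95 Mb away and has 367 heat-shock partners. All its scores were weak, from -2.05 to -3.59. The bin 3R 25240001-25250000 had 19 partners, 16 on its lower side, at a median of 2.66 Mb and with a best score of -3.79. The fifth, 2R 14100001-14110000, had 18 partners at a median of 0.82 Mb and at most 2.95 Mb away, and 4 of its scores were -5 or below, down to -7.73 with 2R 16680001-16690000. Of these 5 bins, 4 had a neighbour that was in neither list.

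**Figure D3:**
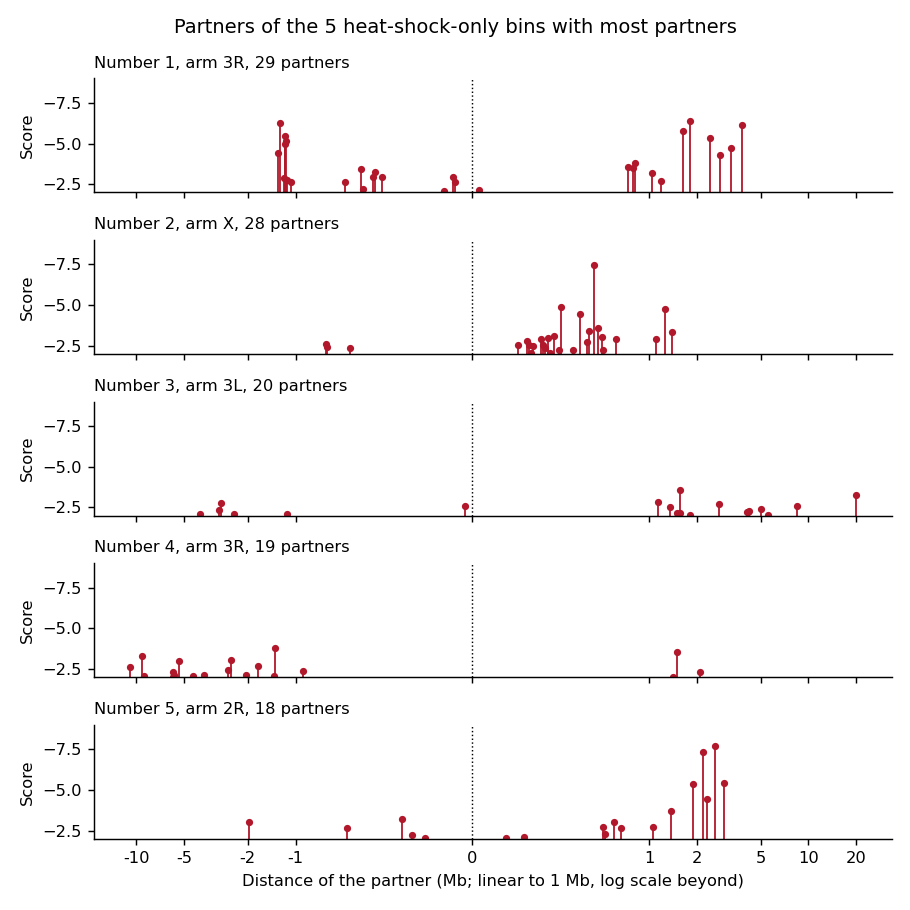
Each point is a partner of 1 of the 5 heat-shock-only bins with most partners: its signed distance from the bin (Mb, linear to 1 Mb and on a log scale beyond) against the deposited score of the pair (stronger upwards). Numbers 1 to 5 follow the order in the text; the partners of number 2 keep within 1.38 Mb, and those of number 3 reach 19.95 Mb.

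That last feature was then counted over the set, after it had been seen. A bin in neither list lay beside 12 of the 36 heat-shock-only bins with 10 or more partners, or 33.3% (18.6 to 51.0%). Without the 5 bins above, which prompted the count, it was 8 of 31, or 25.8% (11.9 to 44.6%). Among bins of both lists with 10 to 29 partners it was 12.4% (11.2 to 13.7%), which overlaps that second interval, and among rich bins 31.6% (26.5 to 37.0%). Heat-shock-only bins with 1 partner had such a neighbour in 8.92% (6.22 to 12.3%) of cases, about as bins of both lists with 1 partner, at 8.48% (6.32 to 11.1%). Rich bins also lay beside some of the poorest bins, namely 8.92% (6.22 to 12.3%) of heat-shock-only bins with 1 partner and 4.59% (3.02 to 6.66%) of both-list bins with 1 partner, whose intervals overlap slightly.

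The partners of the set were then sorted by kind. Each heat-shock-only bin with each of its partners counts as a link, which gave 3938 links in 3850 different pairs, 6.49% (6.30 to 6.69%) of the heat-shock list. The links reached 2330 different bins, of which 263 were rich, 167 were heat-shock-only bins and 1900 were other bins. Rich bins took 1383 links, or 35.1% (33.6 to 36.6%). They are 320 of the 10846 bins in the heat-shock list, but many partners are what defines them. Counting each bin of each listed pair as a link end, they held 25.4% (25.2 to 25.7%) of all link ends. Other heat-shock-only bins took 176 links, or 4.47% (3.85 to 5.16%), and the remaining 60.4% (58.9 to 61.9%) went to other bins of both lists.

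How this share compares depends on which bins it is set against. Over all links of both-list bins with under 50 partners, 31.9% (31.6 to 32.2%) went to rich bins, which is below the heat-shock-only set. These bins have more partners, and the share of rich bins changes with that number. Reweighted to the same numbers of partners, bins of both lists had 40.9% of their links with rich bins, above the interval of the heat-shock-only set. Reweighted values carry no interval. Of these reweighted links, 14.5% were also companion pairs, a kind that the rule bars from the set, so the link pools differ by construction. What this adds to the gap was not tested. At equal list length the shares were 38.1% (36.0 to 40.2%) and, reweighted, 44.3%. Within classes of partner number the gap was widest at the extremes. With 1 partner, that partner was rich for 91 of 370 heat-shock-only bins, 24.6% (20.3 to 29.3%), and for 36.2% (32.3 to 40.3%) of both-list bins. With 10 to 29 partners the shares were 18.0% (14.7 to 21.7%) and 29.2% (28.8 to 29.6%). The first of these rests on 484 links of only 36 bins, so its interval is too narrow, and partner numbers were not matched within the class. With 5 to 9 partners they were 40.3% (37.8 to 42.8%) and 41.3% (40.7 to 42.0%), within each other's error.

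**Figure D4:**
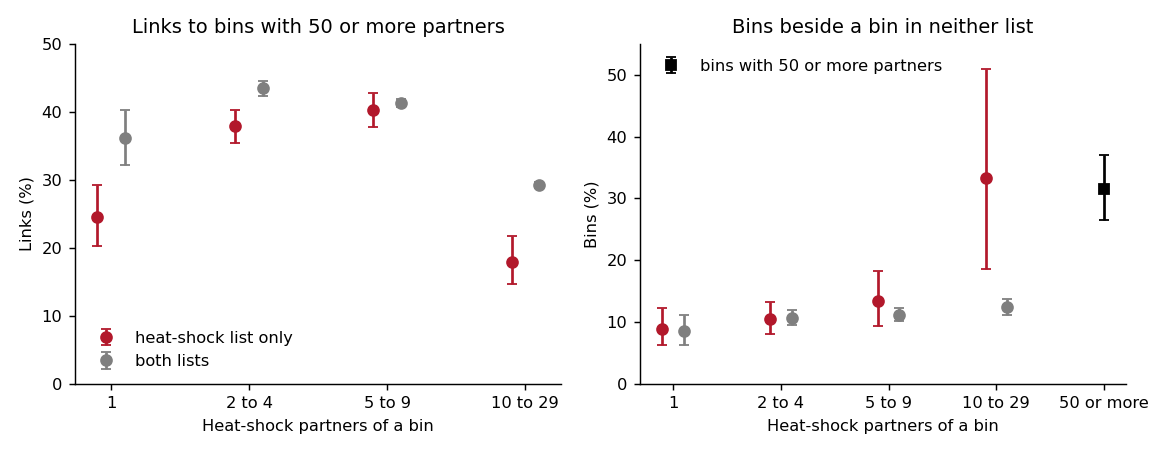
Left, share of links to bins with 50 or more heat-shock partners (%), by number of heat-shock partners, for heat-shock-only bins (red) and both-list bins (grey). Right, share of bins beside a bin in neither list (%), with rich bins as a black square; bars are exact 95% intervals, and the red point at 10 to 29 partners stands at 33.3%.

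At least 1 rich partner was found for 670 heat-shock-only bins, 54.7% (51.9 to 57.5%), and rich partners alone for 168, or 13.7% (11.8 to 15.8%). Among bins of both lists, reweighted and with companion pairs among their links, these shares were 63.7% and 20.4%. Most rich bins took part: 263 of 320 had a heat-shock-only partner, with a median of 3 (3 to 4) each. The bin 3R 6970001-6980000 had the most, 23 of its 363 partners. It was followed by 2R 5850001-5860000 and 2R 3150001-3160000 with 20 each of 212 and 160 partners, then 2R 20500001-20510000 with 18 of 249 and 3L 20530001-20540000 with 16 of 231. As a share of a rich bin's partners, heat-shock-only bins ranged from 0 to 19.6%, with a median of 3.75%. Pooled over all links of rich bins, the share was 4.59% (4.35 to 4.83%). Heat-shock-only bins made up 3.32% (3.22 to 3.42%) of all link ends, which is lower, but this comparison is not matched for partner numbers.

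From the other side, some heat-shock-only bins met several rich bins, up to 7. The bin 3R 24330001-24340000 had 7 rich bins among 11 partners and a best score of -10.2. The bins X 3720001-3730000, 3R 4110001-4120000 and 3R 4460001-4470000 also had 7, among 10, 15 and 11 partners. The bin 3R 9880001-9890000 had 6 among its 7, and was taken by its score from several bins with 6, some on each of the other arms. Arm 3R, where 84 of the 320 rich bins are found, held 4 of these 5 bins, the last of them by that tie-break. By arm, links to rich bins ranged from 28.3% (24.8 to 32.0%) on 3L to 39.3% (36.4 to 42.3%) on 3R. Without reweighting, the both-list share was lower on each of the 5 arms, for example 25.5% (24.9 to 26.1%) on 3L and 37.7% (37.1 to 38.3%) on 3R. Reweighted within each arm it was higher on each, with 33.3% on 3L and 45.3% on 3R.

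Heat-shock-only bins were paired with each other somewhat more often than bins of both lists were paired with them, but the rule favours this. The share of links to heat-shock-only bins was 4.47% (3.85 to 5.16%) within the set and 3.08% for reweighted bins of both lists. Of these reweighted links, 14.5% were also companion pairs, which by the rule cannot reach a heat-shock-only bin. No link of the set was of this kind, so the gap is a description and not a test. At equal list length it was 3.51% (2.76 to 4.39%) against 2.61%. In all, 88 pairs joined 2 heat-shock-only bins and 167 bins, 13.6% (11.8 to 15.7%) of the set, took part. Each such pair gives 2 links, so the interval on their share is too narrow. They formed 79 separate groups, of which 73 were single pairs and the largest held 5 bins. By arm there were 27 such pairs on 3R, 26 on 2R, 13 each on 2L and X, and 9 on 3L.

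The strongest pair between 2 heat-shock-only bins joined X 16630001-16640000 to X 20600001-20610000, 3.97 Mb apart, with a score of -19.0. The second joined X 15500001-15510000 to X 19350001-19360000, 3.85 Mb apart, with -10.5. Both spanned nearly the same distance. The third, 3L 9510001-9520000 with 3L 11990001-12000000, scored -8.0, and the fourth, X 390001-400000 with X 1810001-1820000, scored -7.96. The fifth joined X 7560001-7570000 to X 17000001-17010000, 9.44 Mb apart, with -6.58. Of these 5 pairs, 4 were on X, and none had a companion pair within 2 bins of both ends.

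Distances were close to those in the rest of the heat-shock list, where pairs that touch no heat-shock-only bin had a median of 1.61 Mb (1.59 to 1.63 Mb). The median link of a heat-shock-only bin spanned 1.72 Mb (1.62 to 1.81 Mb), and so did that of bins of both lists (1.70 to 1.74 Mb). Reweighted to the same partner numbers, the both-list median was 1.89 Mb, above the interval of the set. The reweighted links again include companion pairs, which the rule bars from the set. In lists of equal length the medians were 1.68 Mb (1.58 to 1.79 Mb) and 1.80 Mb, again just above it. Of the links, 48.6% (47.1 to 50.2%) spanned over 1 and up to 5 Mb, 26.7% (25.3 to 28.1%) over 200 kb to 1 Mb and 19.3% (18.1 to 20.5%) over 5 Mb. Short links were few: 1.09% (0.791 to 1.47%) spanned up to 50 kb, against 1.80% in the reweighted comparison, and 4.34% (3.73 to 5.03%) spanned over 50 to 200 kb, against 6.15%.

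**Figure D5:**
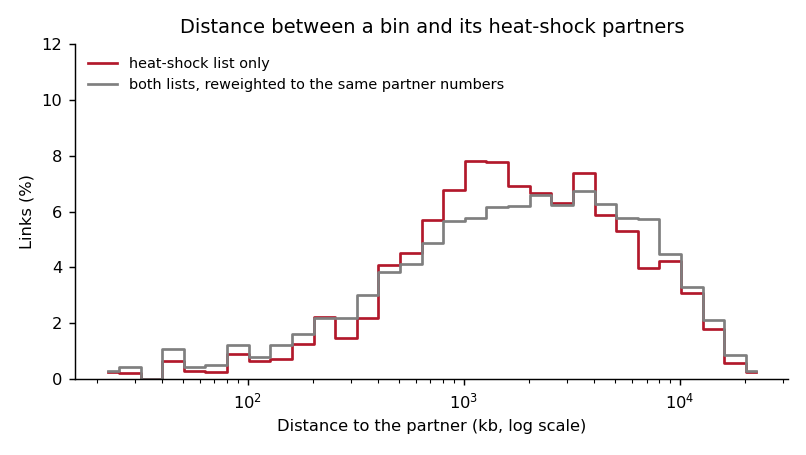
Share of links (%) by distance between a bin and its heat-shock partner (kb, log scale) for heat-shock-only bins (red) and for bins of both lists reweighted to the same partner numbers (grey). The red curve lies higher near 1 to 2 Mb and lower above 5 Mb and below 200 kb; the medians are 1.72 and 1.89 Mb.

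Distance depended on the kind of partner. Links to rich bins had a median of 1.22 Mb (1.15 to 1.31 Mb), links to other heat-shock-only bins 2.08 Mb (1.55 to 2.59 Mb) and links to other bins 2.33 Mb (2.16 to 2.50 Mb). Reweighted bins of both lists showed 1.20 Mb for rich partners and 2.86 Mb for all others, against 2.33 Mb (2.14 to 2.48 Mb) in the set. Distances to rich partners thus hardly differed between the sets, and distances to other partners were shorter in the heat-shock-only set. By arm the median was 1.15 Mb (1.02 to 1.30 Mb) on X and between 1.705 Mb on 2L and 1.97 Mb on 2R elsewhere. The longest pair joined 3L 1710001-1720000 to the rich bin 3L 24160001-24170000, 22.45 Mb away, with a score of -3.28. The shortest span, 20 kb, occurred in 9 pairs, with X 3640001-3650000 and X 3660001-3670000 the strongest at -4.20.

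By score these links were no weaker than others in the list. The authors' score had a median of -2.53 (-2.55 to -2.50) over the links of the set and -2.50 over reweighted links of both lists. The best score of a bin had a median of -3.22 (-3.32 to -3.12) in the set and -3.22 in the reweighted comparison. A best score of -5 or below was reached by 17.4% (15.3 to 19.6%) of heat-shock-only bins and 16.6% of the comparison. Links to rich bins were stronger, with a median of -2.89 (-2.96 to -2.82), than links to other bins, with -2.40 (-2.42 to -2.37).

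Some very strong pairs belonged to the set. Scores of -10 or below were given to 23 pairs, 0.597% (0.379 to 0.895%) of those that touch a heat-shock-only bin, against 0.651% (0.588 to 0.719%) of the whole list. The strongest joined 3R 13840001-13850000, which had 6 partners, to 3R 8410001-8420000, 5.43 Mb away, with -49.7. The second joined 2R 18140001-18150000 to 2R 6500001-6510000, 11.64 Mb away, with -28.7. The third, 3R 26740001-26750000 with 3R 17150001-17160000, spanned 9.59 Mb and scored -26.6, and was the single pair of its heat-shock-only bin. The fourth, 2R 18670001-18680000 with 2R 14110001-14120000, scored -22.6, and the fifth, X 8660001-8670000 with X 13480001-13490000, scored -21.9. The partner bins of these 5 pairs were paired in the companion list with 2, 1, 4, 2 and 7 other bins, in that order, and none was rich. No companion pair lay within 2 bins of both ends of any of the 5.

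The same held for most weaker links. Another companion pair within 1 bin of both ends was found for 494 links, 12.5% (11.5 to 13.6%), and within 2 bins for 21.4% (20.1 to 22.7%). Reweighted links of both lists had 19.9% and 29.7%; the rule itself removes the shifted pairs that keep the heat-shock-only bin, so the set starts with fewer chances. Nearby companion pairs went with short links: their median distance was 0.65 Mb (0.58 to 0.69 Mb), against 1.97 Mb (1.88 to 2.07 Mb) for links without one. Over 50 to 200 kb, 33.9% (26.9 to 41.5%) of links had a companion pair within 1 bin, over 1 to 5 Mb 7.10% (5.99 to 8.35%) and over 5 Mb 2.64% (1.62 to 4.04%). Counted by bin, 331 of the 1225 heat-shock-only bins, 27.0% (24.6 to 29.6%), had at least 1 link of this kind.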

How the data were processed

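Hi-C pair lists were analysed as the authors deposited them. Each line holds a chromosome arm, 2 bins of 10 kb and a score. The deposited score is negative in every line and at most -2; the sources used here give neither its base, test and background model nor the genome build and the pair caller. The submitters' processing notes name Bowtie 0.12.7, without a role. The heat-shock list covers both Hi-C libraries together, per the labels; no label used here ties the companion list to a sample. The other 7 libraries of the series were not analysed here.

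Bins, partners, runs of adjacent bins and distances between bin starts were counted with Python 3.11.15, pandas 2.3.3 and scipy 1.17.1, with functions checked on planted lists. Shares have exact (Clopper-Pearson) 95% intervals and medians have order-statistic intervals, and both cover counting error alone. Links of the same bin are counted as independent, so intervals over links may be too narrow. Depth is unknown, since the lists hold no read counts. With 1 list of each kind and no replicates, no test was possible. Bins paired in both lists with under 50 heat-shock partners served as comparison. For reweighted values, each comparison bin was weighted so that the numbers of heat-shock partners were distributed as in the heat-shock-only bins. Links that are also companion pairs stay in the comparison, although the rule bars them from the set. Named regions are the first 5 (runs, first 3) by partners, by partners among rich bins, by score, and by run length, with ties broken by score and position. The bins and the named lists were chosen with earlier results of these data known. Since the build of the lists is unknown, the Release 6 gene table was not used and no gene was assigned to a bin. Alternatives were lists of equal length, the strongest 50% of each list, other partner limits, a companion-free margin of 1 bin, arms without their ends, and other limits for rich bins.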

Additional observations from a re-analysis of the deposited data

How the results depend on the processing

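Under the alternatives, 32 of 51 values kept inside the main value's interval (for the number of bins, within 1.5 times) and 19 did not. A limit of under 100 partners could change no value, as the richest heat-shock-only bin had 29. A limit of under 20 removed only 3 bins. The values under these limits were thus fixed or nearly fixed in advance, and the tally does not measure robustness. With the heat-shock list cut to the length of the companion list, 20.3% of bins were in runs, 38.1% of links went to rich bins and 3.51% to other heat-shock-only bins. In the strongest 50% of each list, 2283 bins met the rule, 43.1% of them in runs, with a median distance of 1.84 Mb, 48.1% of links to rich bins and 7.04% to each other; a shorter companion list leaves more bins unpaired by construction. Where the bins on either side also had to lack companion pairs, 34 bins were left, with a median of 4 partners and 2.245 Mb. Of their links, 30.4% (22.9 to 38.8%) went to rich bins and 1.45% (0.176 to 5.14%) to each other. Within 1 Mb of an arm end lay 17.6% (6.76 to 34.5%) of these bins, 6.78% of the full set and 8.22% of all bins used. The wide intervals of these shares hold the values of the full set. With at least 2 partners, 19.6% were in runs and 3.48% of links joined 2 such bins. Rich bins taken from 30 or 100 partners held 43.9% or 21.3% of links. Without links to rich bins, which was tried after seeing the data, the median distance was 2.33 Mb. Where no reason is given, the cause was not tested. No library could be left out, because 1 list covers both. A bin missing from a list may have contacts below its limit.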

Other observations

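In lists of equal length, the arms differed in which kind of bin was more frequent, although the totals of 969 heat-shock-only and 939 companion-only bins were close. On 3R, heat-shock-only bins made up 9.36% (8.27 to 10.5%) of the bins used and companion-only bins 5.91% (5.03 to 6.88%), and on 2R 10.3% (9.03 to 11.8%) and 7.72% (6.57 to 9.0%). On X the order was the opposite, with 8.96% (7.73 to 10.3%) and 12.6% (11.1 to 14.1%), as on 3L, with 6.54% (5.56 to 7.64%) and 8.78% (7.65 to 10.0%). On 2L the shares were 9.59% (8.36 to 10.9%) and 9.11% (7.91 to 10.4%), within counting error. No replicate lists were at hand to test these differences.

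Heat-shock-only and companion-only bins of the full lists had alike small numbers of partners, each in its own list, with medians of 2 and 2. The richest companion-only bin had 16 companion partners, and 41.6% (35.7 to 47.7%) of companion-only bins had 1.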
